A study of Rattus norvegicus with 8 samples.

Results

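GABA is the main inhibitory transmitter of the hypothalamus, and the genes described here make, package, remove and sense it or set the chloride gradient through which it acts. They are 26 of the 14506 genes measured by a uniquely named probe set: 16 subunits of the GABA-A receptor, both subunits of the GABA-B receptor, 5 genes of synthesis, transport and breakdown, the scaffold gene Gphn and 2 chloride carriers. Members were chosen by gene symbol, and each had 1 probe set.

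The tissue was hypothalamus from female Sprague-Dawley rat offspring aged 21 days, hybridised to Affymetrix Rat Gene 1.0 arrays, with 4 groups of 2 arrays. CR-l and CR-s offspring came from calorie-restricted dams, with leptin or saline treatment, and Con-l and Con-s offspring came from normally fed dams, with leptin or saline treatment. The restricted dams had 50% fewer calories from gestation day 11 to 21 and again after birth, and leptin, the adipose hormone that lowers food intake, or saline was given from postnatal day 2 to 8. The protocol does not name the recipient, and the source names can be read as the mothers having received it. Every leptin difference below is therefore one between treatments, whether of pups or of dams, and no group went without a treatment. The design note calls the leptin-treated controls Con-r, which was read as the Con-l of the sample titles. The labels do not say whether an RNA sample pools animals or litters, so p-values measure only the spread between these 8 samples. In whole tissue, fewer cells of a type and less RNA per cell cannot be told apart.

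Median intensities were 111.8 to 114.1 on the 8 arrays, and replicates of a group correlated at 0.9965 to 0.997 across genes, which are not independent. The interquartile range of log2 intensities was 2.92 for CR-s replicate B and at least 3.01 for the other arrays. Of the listed hypothalamic genes 15 of 17 were measured, and among them Pmch read at least 11.09 and Oxt at least 10.96 on every array, where the median gene had a mean of 7.45. Values are log2 intensities, and differences are log2 differences. The median intensities of arrays, the summed intensities and the lowest intensity of the series are on the linear scale. Probe sets differ in how brightly they report a transcript, so levels are compared across arrays and never between genes.

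As background, GABA-A receptors are chloride channels assembled from alpha, beta and other subunits, and the subunit mix sets where the receptor sits and how long its current lasts. Receptors with a gamma subunit gather at synapses on the gephyrin scaffold, while those with a delta subunit, often paired with alpha4, lie outside synapses and carry a steady current. GABA-B receptors act through G proteins. In young neurons the importer Slc12a2 keeps chloride high and GABA can depolarise, and the exporter Slc12a5 takes over as neurons mature. In the arcuate nucleus the Agrp neurons that drive feeding release GABA.

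**Figure D1:**
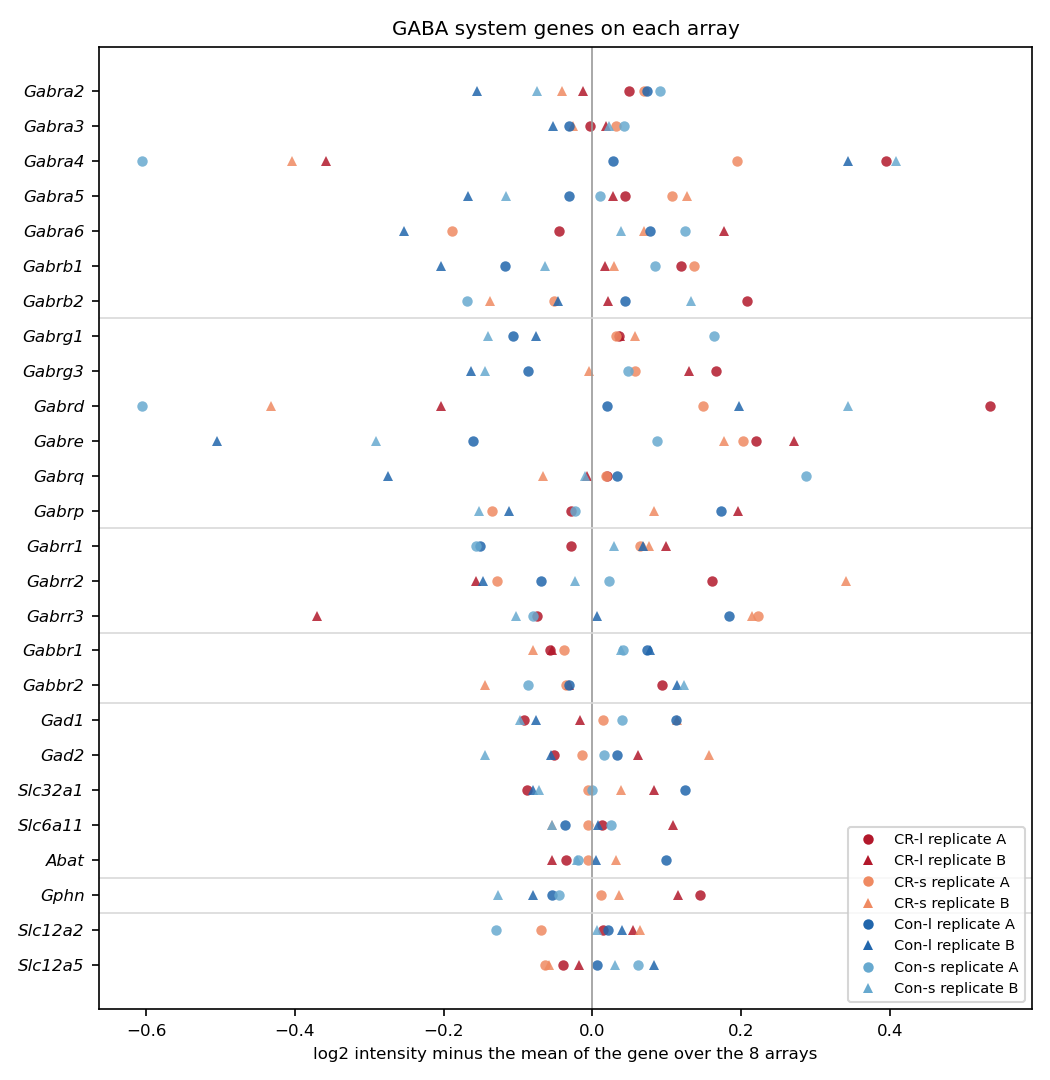
Log2 intensity of each of the 26 genes on each array, minus that gene's mean over the 8 arrays (x axis), with genes grouped by role from top to bottom. Circles are replicate A and triangles replicate B, red and orange are CR, dark and light blue are Con. Most genes stay close to their mean, while Gabra4 and Gabrd spread widely within groups and Gabre is lower on every Con array than on every CR array.

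The first question is whether maternal restriction, averaged over leptin and saline (4 arrays against 4), altered the GABA system. Differences were small. None of the 26 genes passed at an adjusted p under 0.05 in limma over all 14506 genes, in a comparison in which 1.21% of genes passed. At an unadjusted p under 0.05 there were 6 of the 26 (23.1%), beside 15.8% of all genes: Gabre, Gphn, Gabrg3, Gabra5 and Gabrb1 were higher in CR (19.2%, beside 6.71%) and Gabbr1 lower (3.85%, beside 9.04%). By sign alone, 19 were higher and 7 lower, with a median difference of 0.03, where 50.3% of all genes were higher. The median size of the differences was 0.06 in the members and 0.06 over all genes. For 5 members (19.2%, beside 11.2% of all genes) the arrays of the 2 diets did not overlap. These were Gabre, Gphn and Gabra5 on the higher side, 11.5% of the members beside 4.52% of all genes, and Gabbr1 and Slc12a5 on the lower, 7.69% beside 6.67%.

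**Figure D2:**
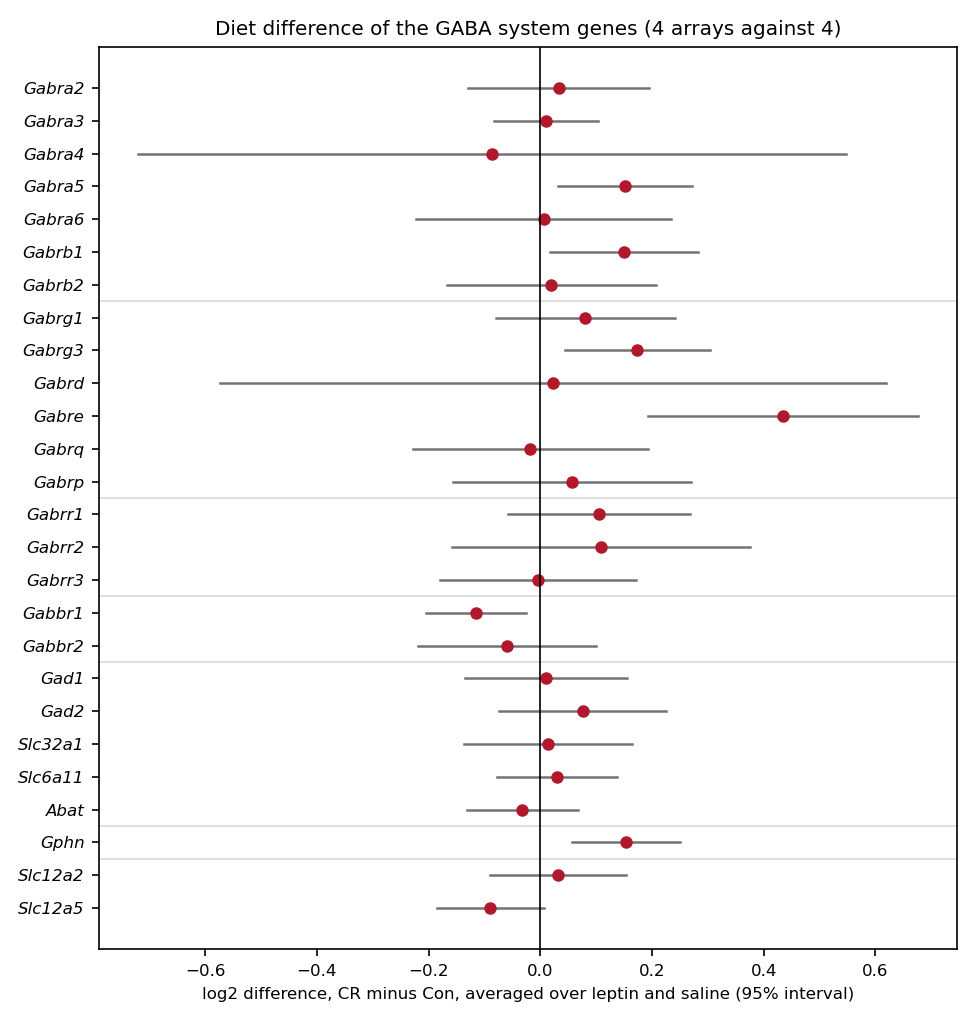
Diet difference of each gene (x axis, log2, CR minus Con averaged over leptin and saline), with points for the limma estimate and bars for its 95% interval. Gabre lies farthest from 0 at 0.43 (interval 0.19 to 0.68), and the bars of Gabra4 and Gabrd are the widest.

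Gabre, the gene of the epsilon subunit, had the largest diet difference of the 26. It read 9.49 and 9.54 on the CR-l arrays and 9.48 and 9.45 on the CR-s arrays, against 9.11 and 8.77 on Con-l and 9.36 and 8.98 on Con-s. All CR arrays were above all Con arrays, and the Con arrays were the more scattered: the means were 9.49 ± 0.04 in CR and 9.06 ± 0.25 in Con (SD, n = 4 each). The difference of 0.43 is a 1.35-fold higher level (SE 0.10, 95% interval 0.19 to 0.68, unadjusted p = 0.00363, adjusted p = 0.109 in limma). By the exact two-sided permutation test of 4 arrays against 4, p was 0.0286, the smallest that 35 splits allow, and 0.256 after adjustment over all genes. The same exact values hold for Gphn, Gabra5, Gabbr1 and Slc12a5. Under leptin the difference (CR-l minus Con-l) was 0.58 (SE 0.15, adjusted p = 0.167), and under saline (CR-s minus Con-s) 0.29 (SE 0.15, adjusted p = 0.641). The epsilon subunit is known from a limited set of brain sites that includes the hypothalamus, and receptors that contain it can open without GABA.

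On the X chromosome of the RefSeq assembly GRCr8, Gabre, Gabra3 and Gabrq lie in a row with 1 protein-coding gene between each pair. Gabra3 (alpha3) and Gabrq (theta) differed by 0.01 (SE 0.04) and -0.02 (SE 0.09) in the diet comparison. Gabrq read 9.04 and 9.02 on CR-l, 9.04 and 8.96 on CR-s, 9.06 and 8.75 on Con-l and 9.31 and 9.02 on Con-s. The Con arrays of Gabrq enclosed the CR arrays. Gabrq shared with Gabre the order of the Con arrays: Con-s replicate A was highest and Con-l replicate B lowest in both genes. The 300 bases around the start of Gabre are shown because it had the largest difference (chrX:155120672-155120971, minus strand, RefSeq GRCr8, 250 bases before to 50 after the start). Capitals mark each GC box, GGGCGG on either strand, a motif bound by Sp1-type factors that 33.1% of 33469 RefSeq promoters of this length hold.
Gabre: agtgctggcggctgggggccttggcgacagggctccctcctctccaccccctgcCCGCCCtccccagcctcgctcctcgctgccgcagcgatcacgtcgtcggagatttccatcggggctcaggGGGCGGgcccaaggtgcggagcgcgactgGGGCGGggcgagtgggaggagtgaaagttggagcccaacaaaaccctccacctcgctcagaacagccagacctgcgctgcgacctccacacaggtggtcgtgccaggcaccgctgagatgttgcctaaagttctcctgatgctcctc

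Gphn, the gene of gephyrin, which anchors glycine and GABA-A receptors at synapses, read 11.17 and 11.14 on CR-l and 11.04 and 11.06 on CR-s. The Con-l arrays read 10.97 and 10.95 and the Con-s arrays 10.98 and 10.90. Every CR array was above every Con array, and CR-l was above CR-s. The difference was 0.15 (SE 0.04, interval 0.06 to 0.25, adjusted p = 0.138 in limma), a 1.11-fold higher level. It was 0.20 under leptin (SE 0.06, adjusted p = 0.213) and 0.11 under saline (SE 0.06, adjusted p = 0.668).

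Gabra5 and Gabrg3 are direct neighbours on chromosome 1 of GRCr8. Gabra5, the alpha5 subunit, known from receptors outside synapses, read 11.005 and 10.988 on CR-l and 11.07 and 11.09 on CR-s, against 10.93 and 10.79 on Con-l and 10.97 and 10.85 on Con-s. All CR arrays were above all Con arrays by a small margin (difference 0.15, SE 0.05, adjusted p = 0.215). Gabrg3, a gamma subunit, read 10.39 and 10.36 on CR-l and 10.28 and 10.22 on CR-s. Its Con-l arrays read 10.14 and 10.06 and its Con-s arrays 10.27 and 10.08. Con-s replicate A lay among the CR-s arrays, so the diets overlapped (difference 0.17, SE 0.06, adjusted p = 0.197). The Gabrg3 difference was 0.27 under leptin (SE 0.08) and 0.07 under saline (SE 0.08), and the interaction of diet and leptin, which tests that change, was 0.20 (SE 0.11, adjusted p = 0.898).

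Gabrb1, a beta subunit, read 10.32 and 10.22 on CR-l and 10.34 and 10.23 on CR-s. It read 10.08 and 9.997 on Con-l and 10.29 and 10.14 on Con-s. The CR arrays were alike and the Con-l arrays lowest, with Con-s replicate A inside the CR range (diet difference 0.15, SE 0.06, adjusted p = 0.262). On chromosome 14 of GRCr8 Gabrb1 stands next to Gabra4, and Gabra2 and Gabrg1 follow, with the gene Cox7b2 between Gabra4 and Gabra2. Gabra2, an alpha subunit of synaptic receptors, differed by 0.03 (SE 0.07), Gabrg1 by 0.08 (SE 0.07) and Gabrb2 on chromosome 10 by 0.02 (SE 0.08). None of these genes passed.

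The GABA-B subunits work only as a pair, Gabbr1 binding GABA and Gabbr2 coupling to the G protein. Gabbr1 read 12.19 and 12.19 on CR-l and 12.21 and 12.16 on CR-s, against 12.32 and 12.32 on Con-l and 12.29 and 12.28 on Con-s. Every CR array was below every Con array, and the replicates lay so close together that 99.4% of genes had a larger residual SD. The difference was nonetheless small, -0.12 (SE 0.04, interval -0.20 to -0.03, adjusted p = 0.212). Gabbr2 differed by -0.06 (SE 0.07, adjusted p = 0.731), and its CR and Con arrays overlapped, at 10.70, 10.58, 10.57 and 10.46 in CR and 10.58, 10.72, 10.52 and 10.73 in Con.

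**Figure D3:**
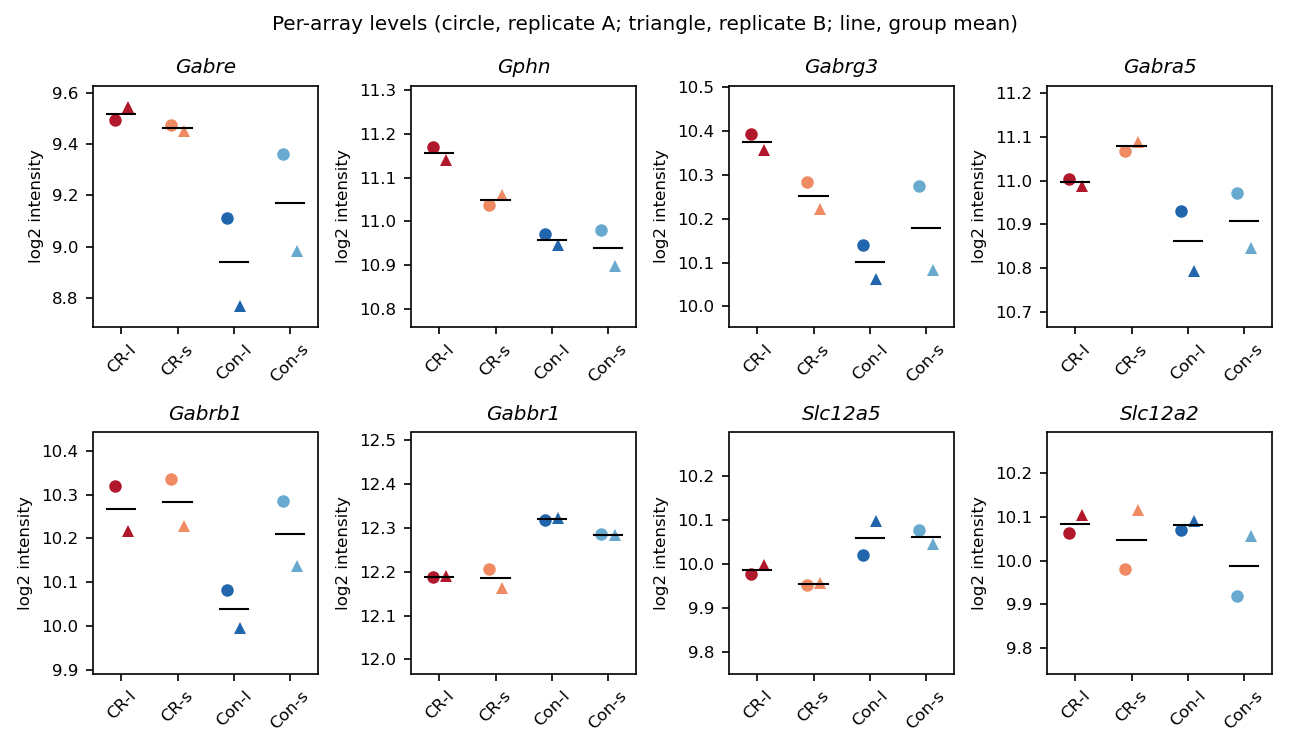
Log2 intensity on each array (y axis, not starting at 0) of 8 genes, with groups from left to right CR-l, CR-s, Con-l and Con-s. Circles are replicate A, triangles replicate B and lines group means. Gabre, Gphn and Gabra5 are higher on all CR arrays than on all Con arrays, Gabbr1 and Slc12a5 are lower, and Gabrg3, Gabrb1 and Slc12a2 overlap.

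For the chloride carriers, Slc12a5, the exporter KCC2 of mature neurons, read 9.98 and 9.997 on CR-l and 9.95 and 9.96 on CR-s, against 10.02 and 10.10 on Con-l and 10.08 and 10.05 on Con-s. All CR arrays were below all Con arrays (difference -0.09, SE 0.04, interval -0.19 to 0.01, unadjusted p = 0.0616, adjusted p = 0.345). Slc12a2, the importer NKCC1, read 10.06 and 10.10 on CR-l, 9.98 and 10.11 on CR-s, 10.07 and 10.09 on Con-l and 9.92 and 10.06 on Con-s. The diets overlapped, although CR-l replicate B and CR-s replicate B were above every Con array, and both Con-l arrays were above both Con-s arrays (diet difference 0.03, SE 0.05, interval -0.09 to 0.15, adjusted p = 0.825).

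The genes that make and pack GABA did not separate by diet. Gad1, the glutamate decarboxylase GAD67, read 10.04 and 10.11 on CR-l and 10.15 and 10.24 on CR-s, against 10.24 and 10.06 on Con-l and 10.17 and 10.03 on Con-s (difference 0.01, SE 0.06, interval -0.14 to 0.16). Gad2, the GAD65 form found at terminals, read 11.04 and 11.15 on CR-l and 11.08 and 11.25 on CR-s, against 11.13 and 11.04 on Con-l and 11.11 and 10.95 on Con-s (difference 0.08, SE 0.06, interval -0.07 to 0.23). Slc32a1, the vesicular carrier that loads GABA into vesicles, read 9.21 and 9.38 on CR-l and 9.29 and 9.33 on CR-s, against 9.42 and 9.21 on Con-l and 9.29 and 9.22 on Con-s (difference 0.01, SE 0.06, interval -0.14 to 0.16). CR and Con arrays of all 3 genes overlapped. Among the genes that clear GABA, the astrocyte carrier Slc6a11 (GAT3) differed by 0.03 (SE 0.05) and the transaminase Abat, which breaks GABA down, by -0.03 (SE 0.04).

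The remaining subunits gave dim probe sets or wide intervals. Gabra6, Gabrp, Gabrr1, Gabrr2 and Gabrr3 were the 5 members outside the upper 60% of genes by mean intensity, and Gabra6, a subunit known from cerebellar granule cells, read 3.84 to 4.27. The rho subunits are best known from retina. Their diet differences were 0.10 for Gabrr1 (SE 0.07), 0.11 for Gabrr2 (SE 0.11) and -0.00 for Gabrr3 (SE 0.07), and those of Gabra6 and Gabrp were 0.01 (SE 0.10) and 0.06 (SE 0.09). None of the 5 passed. Over the 26 members, half-widths of the 95% interval in the averaged diet comparison ran from 0.09 to 0.63, with a median of 0.15.

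The diet comparison under leptin (CR-l against Con-l) had 6 members at an unadjusted p under 0.05 (23.1%, beside 14.2% of all genes), and none passed where 0.0207% of all genes did. These were Gabre, Gabrg3, Gphn and Gabrb1 on the higher side (15.4%, beside 6.92%) and Gabrr3 and Gabbr1 on the lower (7.69%, beside 7.27%). Under saline (CR-s against Con-s) 1 member was at an unadjusted p under 0.05 (3.85%, beside 8.5% of all genes), Gabrr3, and no gene of the whole table passed (0%). Whether the 2 differ is the interaction, in which no gene passed (0%) and 1 member, Gabrr3 again, was at an unadjusted p under 0.05 (3.85%, beside 5.15%). With trend and robust settings in limma, 4 members passed in the averaged diet comparison (Gphn, Gabrg3, Gabra5 and Gabbr1) and 2 under leptin (Gabrg3 and Gphn). These are 15.4% and 7.69% of the members, beside 5.13% and 3.23% of all genes with the same settings. Among the upper 60% of genes by mean, 2 passed in the averaged comparison, Gabre at an adjusted p of 0.0384 and Gphn, 9.52% of the 21 members kept beside 7% of the 8704 genes kept.

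Markers of some other cells moved with diet beside these values. All 10 measured myelin genes were lower in CR (median -0.25, 4 passing), with summed intensities of 36210 to 39240 in CR and 42520 to 45760 in Con. All 9 meningeal genes were lower (median -0.40, 2 passing, sums of 2079 to 2500 in CR and 2934 to 4087 in Con), as were all 4 red cell genes (median -1.23, 4 passing, sums of 835.6 to 1325 in CR and 2220 to 3497 in Con). Of 8 vessel genes 6 were lower (median -0.08, 2 passing, sums of 3748 to 3941 in CR and 4298 to 4599 in Con). Of 6 choroid plexus genes 4 were higher and 2 lower (median 0.03, 1 passing on the lower side). Their summed intensities were 429.1 to 459.3 in CR and 461.4 to 524.6 in Con. The lowest intensity of the series was 2.39 on the linear scale, so a log2 value above 0 does not show that a marker was detected. The choroid plexus genes averaged a log2 intensity of 6.11 to 6.39, where the median gene had a mean of 7.45. Of 10 astrocyte genes 4 were lower (median 0.01, 1 passing on the lower side, sums of 22740 to 23990 in CR and 23740 to 24680 in Con). Of 15 measured hypothalamic genes 8 were higher and 7 lower (median 0.01), with 2 passing on the higher side and 1 on the lower. Of 10 pan-neuronal genes 7 were higher and none passed (median 0.05). Of 7 microglia genes 3 were higher and 4 lower, with none passing (median -0.04). Of 6 tanycyte and ependyma genes 3 were higher and 3 lower, with none passing (median 0.01). Over all genes 1.21% passed in this comparison. The part of these shifts in the values of the GABA genes was not tested.

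The second question is how leptin and saline treatment differed. Averaged over both diets (leptin minus saline, 4 arrays against 4), no member passed, nor did any gene of the table (0%). No member was at an unadjusted p under 0.05, beside 4.87% of all genes, and the leptin and saline arrays overlapped for all 26, beside 2.37% of genes that did not overlap. Of the members 13 were higher and 13 lower, with a median of 0.00. The smallest p-values were those of Gabrr3 (-0.13, SE 0.07, adjusted p = 0.913), Gabrb1 (-0.09, SE 0.06, adjusted p = 0.913) and Gphn (0.06, SE 0.04, adjusted p = 0.913).

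Within restricted offspring (CR-l against CR-s) 1 member, Gabrr3, was at an unadjusted p under 0.05 (3.85%, beside 5.85% of all genes), and no gene passed (0%). Within control offspring (Con-l against Con-s) no member was at that level, beside 4.19% of all genes, and no gene passed (0%). For Gad1 the leptin difference was -0.12 in restricted offspring (interval -0.32 to 0.09) and 0.05 in controls (interval -0.16 to 0.25). For Slc12a5 it was 0.03 in restricted offspring (interval -0.10 to 0.17) and -0.00 in controls (interval -0.14 to 0.13). In control offspring Gabrq was -0.26 (interval -0.56 to 0.04) and Gabrb1 -0.17 (interval -0.36 to 0.02). With 2 arrays a side, the median half-width of these intervals over the members was 0.22.

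**Figure D4:**
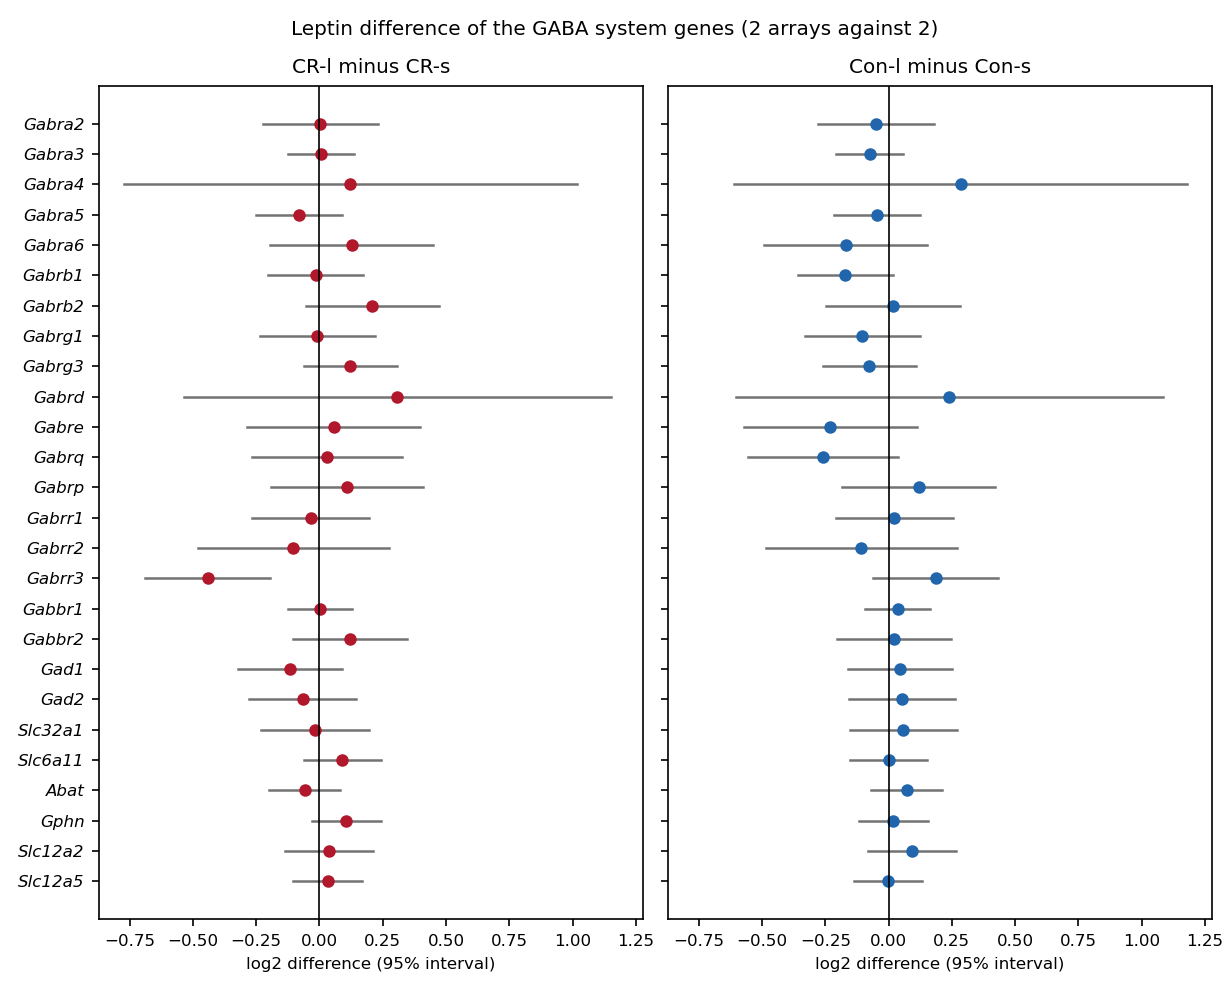
Leptin difference of each gene (x axis, log2) in restricted offspring (left, CR-l minus CR-s) and control offspring (right, Con-l minus Con-s), with points for the limma estimate and bars for the 95% interval. All intervals but that of Gabrr3 in restricted offspring (-0.69 to -0.19) include 0.

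Gabrr3 had the largest interaction of the 26. It read 4.66 and 4.36 on CR-l and 4.96 and 4.95 on CR-s, and 4.92 and 4.74 on Con-l and 4.65 and 4.63 on Con-s. Both CR-l arrays were below both CR-s arrays, and both Con-l arrays above both Con-s arrays. The leptin difference was -0.44 in restricted offspring (SE 0.11) and 0.19 in controls (SE 0.11), and their difference was -0.63 (SE 0.15, unadjusted p = 0.00371, adjusted p = 0.898 in limma). Only 10.4% of genes had a lower mean intensity than this probe set.

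The widest variation in the GABA system lay between replicates, in Gabra4 and Gabrd, the alpha4 and delta subunits that form receptors outside synapses. These genes fall outside the rule for named genes and were taken up after their values were seen. Gabra4 read 10.15 and 9.40 on CR-l, 9.95 and 9.35 on CR-s, 9.79 and 10.10 on Con-l and 9.15 and 10.17 on Con-s. Gabrd read 7.68 and 6.94 on CR-l, 7.30 and 6.72 on CR-s, 7.17 and 7.35 on Con-l and 6.54 and 7.49 on Con-s. In both genes replicate A was the higher in CR-l and CR-s and the lower in Con-l and Con-s. The residual SD was 0.51 for Gabra4 and 0.48 for Gabrd, beside a median of 0.10 over the members and 0.08 over all genes, and only 0.145% and 0.179% of genes had a larger one.

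Genes known from thalamic neurons, where alpha4 and delta receptors are abundant, had gaps of the same sign. Prkcd, a protein kinase C gene of thalamic relay neurons, read 10.30 and 8.95 on CR-l, 9.64 and 8.33 on CR-s, 9.30 and 9.87 on Con-l and 8.34 and 10.05 on Con-s. Its gap, replicate A minus B, was 1.35 in CR-l, 1.30 in CR-s, -0.56 in Con-l and -1.72 in Con-s, where that of Gabra4 was 0.75, 0.60, -0.32 and -1.01 and that of Gabrd 0.74, 0.58, -0.18 and -0.95. All 5 measured genes of the 10 listed thalamic markers (Prkcd, Lef1, Ntng1, Lhx9 and Cacna1g) had these signs. The signs were taken from Gabra4 and the list was chosen with earlier results of these data known, so the count is a description and no test. The gaps of Lhx9 were near 0 in CR-s (0.02) and Con-l (-0.01). The summed intensity of the 5 was 3564 and 2200 on CR-l and 2587 and 1825 on CR-s. It was 2376 and 2999 on Con-l and 1885 and 3232 on Con-s. Among the 26 members 3 had these signs, beside 5.58% of all genes, the other being Gabbr2 (0.13, 0.11, -0.15 and -0.21). The part of thalamic tissue in these values was not tested.

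The genes of GABA synthesis and packing ran the other way on the same arrays. The gap of Gad1 was -0.08 in CR-l, -0.10 in CR-s, 0.19 in Con-l and 0.14 in Con-s. For Gad2 it was -0.11, -0.17, 0.09 and 0.16 in the same groups, and for Slc32a1 -0.17, -0.04, 0.20 and 0.07. In each group the array with more Gabra4, Gabrd and Prkcd had less Gad1, Gad2 and Slc32a1. These gaps were of ordinary size. The residual SD was 0.09 for Gad1, 0.10 for Gad2 and 0.10 for Slc32a1, beside a median of 0.10 over the members. Of all genes 43%, 40.3% and 39.7% had a larger one. The signs were again taken from Gabra4 after its values were seen, so the counts are a description and no test. Of the 26 members 5 had these opposite signs, the others being the dim Gabra6 and Gabrp, and 6.37% of all genes did. As background, the rodent thalamus is known to hold few GABA neurons outside a few nuclei. The part of thalamic tissue in these gaps was not tested.

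**Figure D5:**
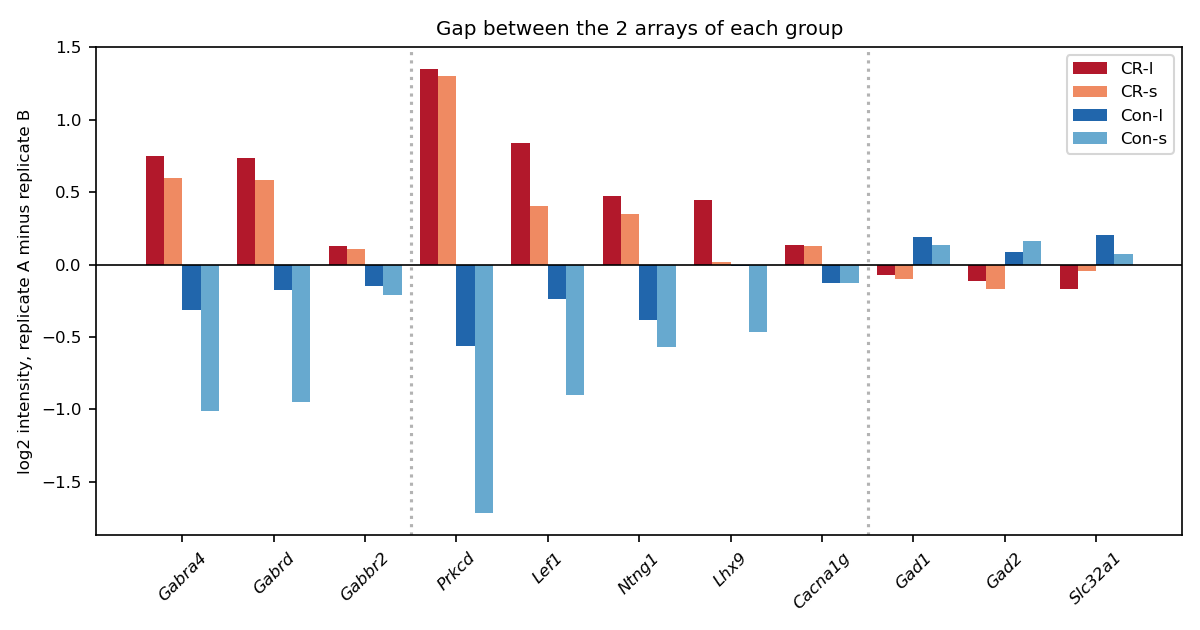
Gap between the arrays of each group (y axis, log2 intensity of replicate A minus replicate B), with bars from left to right for CR-l, CR-s, Con-l and Con-s. Gabra4, Gabrd, Gabbr2 and the 5 thalamic markers have positive gaps in both CR groups and negative gaps in both Con groups, and Gad1, Gad2 and Slc32a1 have the reverse.

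Diet differences of Gabra4 and Gabrd had no resolvable sign: -0.09 for Gabra4 (interval -0.72 to 0.55) and 0.02 for Gabrd (interval -0.57 to 0.62). Without Con-s replicate A they were -0.34 and -0.21, and without Con-s replicate B 0.17 and 0.26.

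The start regions of Gabra4, Gabrd and Gad1 are shown because the values of these genes moved together or apart across arrays. Each runs from 250 bases before to 50 after the start in RefSeq GRCr8: Gabra4 at chr14:36944497-36944796, plus strand, Gabrd at chr5:171252660-171252959, minus strand and Gad1 at chr3:75777202-75777501, plus strand. Capitals mark GC boxes (GGGCGG) and the motif GCGNGGGCG of EGR factors, on either strand. In Gad1 an EGR match and a GC box overlap, and in Gabrd 3 of the 4 GC boxes overlap in a run.
Gabra4: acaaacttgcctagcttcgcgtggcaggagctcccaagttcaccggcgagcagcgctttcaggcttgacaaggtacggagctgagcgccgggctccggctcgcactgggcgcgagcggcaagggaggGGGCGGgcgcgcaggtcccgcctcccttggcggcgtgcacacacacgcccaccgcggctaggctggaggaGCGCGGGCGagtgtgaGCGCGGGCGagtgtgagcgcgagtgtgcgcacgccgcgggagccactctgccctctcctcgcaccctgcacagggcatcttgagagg
Gabrd: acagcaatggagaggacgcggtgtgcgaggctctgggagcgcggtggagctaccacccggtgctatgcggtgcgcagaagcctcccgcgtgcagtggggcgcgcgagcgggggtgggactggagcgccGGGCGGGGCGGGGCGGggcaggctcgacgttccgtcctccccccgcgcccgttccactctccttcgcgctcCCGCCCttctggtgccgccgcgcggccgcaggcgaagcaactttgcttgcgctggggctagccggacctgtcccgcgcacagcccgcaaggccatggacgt
Gad1: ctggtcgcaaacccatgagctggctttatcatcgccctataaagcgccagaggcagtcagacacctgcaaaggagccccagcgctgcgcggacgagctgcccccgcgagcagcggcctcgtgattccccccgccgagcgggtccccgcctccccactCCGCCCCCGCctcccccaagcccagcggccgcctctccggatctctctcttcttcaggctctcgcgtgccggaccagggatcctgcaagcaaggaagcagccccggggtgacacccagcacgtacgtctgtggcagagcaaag
Gabra4 has 2 EGR matches within a repeated stretch, Gad1 has 1 and Gabrd none. EGR matches occur in 2 of the 23 member promoters in the table and in 4.98% of all promoters. GC boxes occur in 14 of the 23, and in 33.1% of all promoters. Of the 23 member promoters, 15 lie above the median GC content of all promoters, 51.7%. No member promoter in the table holds TGACGTCA, the palindrome of CREB-type factors, which 1.83% of all promoters hold. Whether any of these motifs bears on the array values was not tested.

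Other genes of the pathway were read from 5 lists, 51 of 65 listed genes being measured. In the averaged diet comparison 26 were higher and 25 lower in CR, and 1 passed (1.96%, beside 1.21% of all genes). That gene was Slc6a13, the GABA carrier GAT2, known in brain from the meninges. It read 7.76 and 7.93 on CR-l and 7.69 and 7.71 on CR-s, against 8.65 and 8.29 on Con-l and 8.33 and 8.22 on Con-s. It fell by 0.60 (SE 0.09, adjusted p = 0.0325 in limma), with all CR arrays below all Con arrays, beside the lower meningeal genes given above. Their part in this value was not tested. The call was lost when all probe sets were tested together, with the replicate letter as a block, and on leaving out any array but Con-l replicate B, without which 1 pathway gene passed. In the other 6 comparisons none of the 51 passed.

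Of the other carriers and chloride regulators (10 measured, 3 higher, 7 lower, median -0.04), Car2, a carbonic anhydrase also made by oligodendrocytes, differed by -0.50 (SE 0.13, adjusted p = 0.125). Of the synapse scaffold and trafficking genes (14 measured, 8 higher, 6 lower, median 0.01), Dbi, whose product binds the benzodiazepine site, differed by -0.24 (SE 0.06, adjusted p = 0.134) and the motor gene Kif5a by -0.13 (SE 0.04, adjusted p = 0.195). Among GABA and glutamate metabolism genes (9 measured, 4 higher, 5 lower, median -0.00), glutamate dehydrogenase Glud1 differed by -0.21 (SE 0.04, adjusted p = 0.0877) and the glutamine carrier Slc38a2 by -0.19 (SE 0.05, adjusted p = 0.131). The 7 measured GABA-B partners (5 higher, 2 lower, median 0.01) had Kcnj6, a potassium channel, at -0.12 (SE 0.06, adjusted p = 0.405) and the calcium channel Cacna1b at 0.05 (SE 0.05, adjusted p = 0.673). Of the 11 transcription factor and interneuron genes (6 higher, 5 lower, median 0.06), Calb2 (calretinin) was at 0.16 (SE 0.05, adjusted p = 0.153) and Pvalb (parvalbumin) at -0.22 (SE 0.07, adjusted p = 0.214). None of these passed.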

How the data were processed

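The deposited values are linear-scale RMA intensities of probe sets, made by the authors in Affymetrix Expression Console, per the submitters' processing notes. They were log2-transformed and not normalized again. Of 29215 probe sets 15310 had 1 gene symbol (updated through Entrez numbers) and 323 several. The brightest probe set of a gene was kept, giving 14506 genes, with no filter on dim values. One limma model (limma 3.58.1, R 4.3.3) with 4 group means and 4 residual degrees of freedom gave all 7 comparisons. Tests were two-sided, with Benjamini-Hochberg adjustment over all genes at 0.05. It was tested on simulated data. Full values are given for Gad1, Gad2, Slc32a1, Slc12a2 and Slc12a5, and for members with the smallest p in the averaged diet (5), averaged leptin (3) and interaction (3) comparisons. Other genes given by array (Gabra4, Gabrd, Gabbr2 and Prkcd among them) were chosen after their values were seen, as was naming all 5 measured thalamic markers. Members and lists were chosen with earlier results of these data known. Alternatives were other normalizations, filters, limma settings, a replicate block and leaving out each array. Promoters came from RefSeq tables (23 members matched). The number of arrays and the spread between replicates limit precision.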

Additional observations from a re-analysis of the deposited data

Results flagged for a closer look

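Among 104 sets of 4 arrays (26 members, each in the CR, Con, leptin and saline arrays), 1 held a value far from the other 3 by Dixon's test, where chance flags about 1 in 20. It was Gabrq at 8.75 on Con-l replicate B, against 9.02 to 9.06 on the other leptin-treated arrays.

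Gabrr3 and Abat were picked out because both arrays of a group moved one way with leptin in restricted offspring and the opposite way in controls, and the same holds for diet under saline and under leptin. The interaction that tests this was -0.63 for Gabrr3 (adjusted p = 0.898 in limma) and -0.13 for Abat (SE 0.08, adjusted p = 0.905). Abat read 11.34 and 11.32 on CR-l, 11.37 and 11.41 on CR-s, 11.48 and 11.38 on Con-l and 11.36 and 11.36 on Con-s. Such opposite, non-overlapping leptin differences occurred in 6.27% of all genes, and such diet differences in 4.34%.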

How the results depend on the processing

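No member passed in any comparison with cyclic loess, quantile normalization, all probe sets tested together, the replicate block or any array left out (0 each). In the averaged diet comparison 2 members passed among the upper 60% of genes and 4 with trend and robust settings, and 2 under leptin with the latter settings. Over all genes the averaged diet comparison had 175 calls, 0 with all probe sets, 609 in the upper 60%, 744 with trend and robust settings, 87 with the replicate block and 0 to 27 without an array. Diet under saline had 0, 16 in the upper 60%, 66 with trend and robust settings, and 0 without any array. Diet under leptin had 3, 0 with all probe sets, 249 in the upper 60%, 469 with trend and robust settings, 24 with cyclic loess, 10 with quantile normalization, 0 with the replicate block and 0 to 3 without an array. The other comparisons had 0, and 0 to 1 without an array. The cause of these changes was not tested. Across groups, the gaps between replicates A and B correlated at -0.06 to 0.11, so the letters were not taken as pairs. Members whose CR and Con arrays did not overlap numbered 5 (19.2%, beside 11.2% of all genes), 4 with quantile normalization, and 5 to 8 without an array. The shares over all genes in these other settings were not counted. Leaving out an array also makes a lack of overlap more frequent by chance, so the rise is not read as a result. Pathway genes passing in the averaged diet comparison were 1, 0 with all probe sets or the replicate block, and 0 to 1 without an array. They were 8 in the upper 60% and 8 with trend and robust settings, where 7% and 5.13% of the genes tested passed. Without an array the diet difference kept its sign for Gabre (0.34 to 0.53), Gphn (0.13 to 0.17), Gabrg3 (0.13 to 0.22), Gabra5 (0.12 to 0.19), Gabrb1 (0.11 to 0.19), Gabbr1 (-0.13 to -0.10), Slc12a5 (-0.11 to -0.07) and Gad2 (0.03 to 0.12). It changed sign for Gad1 (-0.0368 to 0.0572), Slc32a1 (-0.0365 to 0.0651), Slc12a2 (-0.0024 to 0.0657), Gabrr3 (-0.0776 to 0.0701), Gabrq (-0.0947 to 0.0589), Gabra4 (-0.34 to 0.17) and Gabrd (-0.21 to 0.26). No member had another probe set to compare. The counts of non-overlap and of pathway genes were added after the data had been seen, as were Gabra4 and Gabrd.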

Other observations

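The signs of the gaps between replicates A and B in Gabra4 and Gabrd were also counted in the other lists. Slc17a7, a vesicular glutamate carrier, read 9.25 and 8.40 on CR-l, 8.73 and 7.65 on CR-s, 8.24 and 9.06 on Con-l and 7.39 and 8.93 on Con-s. Its replicate A minus B was 0.84 in CR-l, 1.08 in CR-s, -0.81 in Con-l and -1.54 in Con-s, the signs of Gabra4 and Gabrd. Slc17a6, the carrier of most hypothalamic and thalamic glutamate neurons, had 0.19, 0.11, -0.08 and -0.16. Of 6 glutamatergic genes 4 had these signs, and 1, Slc17a8, the reverse. Of the 7 measured GABA-B partners 4 had them (Kcnj3, Kcnj6, Cacna1a and Cacna1b), and so did 5.58% of all genes. Some of these gaps were near 0: those of Cacna1b in CR-s (5e-04) and Con-l (-0.0058). The same holds for Grin1, counted among the glutamatergic genes, in Con-l (-0.02) and Con-s (-0.01). In the other pathway lists the signs of Gabra4 occurred in 1 of 14 scaffold and trafficking genes and 1 of 10 carriers and chloride regulators. They occurred in 2 of 11 transcription factor and interneuron genes (Vip and Cck) and 0 of 9 metabolism genes. Among marker lists they occurred in 2 of 7 cerebellar granule cell genes (Cbln1 and Zic1) and in 1 gene each of the cortical and hippocampal (5), red cell (4), myelin (10) and pan-neuronal (10) lists. No gene of the hypothalamic peptide list (15) or of the striatal (9), astrocyte (10), tanycyte and ependyma (6), meningeal (9), choroid plexus (6), microglia (7) or vessel (8) lists had them. The reverse signs occurred there in Ghrh, the striatal gene Tac1 and the meningeal genes Aldh1a2 and Slc22a6. In the lists named before, besides Slc17a8, they occurred in Dlx1 and Calb2 of the transcription factor and interneuron genes. They also occurred in Trak1, Slc6a13 and the pan-neuronal gene Rbfox3, and in 6.37% of all genes. These counts describe the 8 arrays and carry no test.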
